A study of Mus musculus with 16 samples.

Results

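Brown adipose tissue makes heat, and its adipocytes do so by letting the mitochondrial proton gradient run down through uncoupling protein 1 while they burn fatty acids. Norepinephrine released by sympathetic nerves drives this programme through beta-adrenergic receptors and cyclic AMP, and an enhancer upstream of Ucp1 is its best known regulatory element. A small set of transcription factors and coregulators, among them Prdm16, Ebf2 and the PGC-1 coactivators, establishes and maintains brown adipocyte identity. Chromatin opening was followed here at 9 genes of this programme, out of 21938 protein-coding genes in GENCODE vM21. They were chosen by name for what they are known to do, with earlier results of these data known. They were the effectors Ucp1, Cidea, Elovl3 and Otop1, the hormone-activating enzyme gene Dio2, and the regulators Prdm16, Ppargc1b, Ebf2 and Zic1.

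The data were ATAC-seq peak lists, in which Tn5 transposase cuts mark open chromatin, from 8 tissues of adult male wild-type C57BL/6 mice. The tissues were both kinds of fat, brown and white, with muscle, heart, liver, kidney, lung and spleen. The mice were either fed or fasting, and each of the 16 libraries was made from nuclei of 1 tissue pooled over the mice of 1 state. There was therefore 1 library per tissue and state, and all tissues of a state came from the same mice. Values within a tissue have no replicate check, and a change in the mixture of cell types in a pool cannot be told apart from a change within brown adipocytes.

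Each list held 298996 to 299529 peak rows, because the authors kept only a fixed number of the most significant rows. Opening of a promoter was expressed as the percentile, by −log10 p within its own list, of the strongest summit within 3000 bp of any start of the gene, from 0 where no peak was listed to near 100 for the strongest. A promoter was called open where such a peak had q under 0.01. Depth is not stated in the files. The expected tag number in background chromatin, recovered from fold and p and proportional to depth, ran from 2.80 to 12.8 tags, with fed brown adipose the deepest library at 12.8 and fasting brown adipose at 6.76. The weakest row also differed between both brown adipose lists, with −log10 p of 7.11 in fed and 2.48 in fasting mice.

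The sequences below carry the brown adipose openings that follow, and each shows 201 bases centred on a summit in brown adipose, read 5′ to 3′ on the strand of its gene from the RefSeq copy of GRCm38. Ucp1 start is the summit beside the transcription start. Ucp1 upstream A is the strongest summit 2 to 3 kb upstream, and the other Ucp1 regions and those of Prdm16, Otop1 and Zic1 were listed in brown adipose and in none of the other 14 libraries. The regions listed in brown adipose alone were chosen for printing after their values were seen. Capitals mark matches to motifs named further on, either a PPAR/RXR direct repeat or an EBF site.
Ucp1 start, chr8:83290189-83290389, plus strand: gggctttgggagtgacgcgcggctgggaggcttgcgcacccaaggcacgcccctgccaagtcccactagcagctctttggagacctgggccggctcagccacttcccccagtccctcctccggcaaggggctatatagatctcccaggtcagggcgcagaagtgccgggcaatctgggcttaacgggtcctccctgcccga
Ucp1 upstream A, chr8:83287867-83288067, plus strand: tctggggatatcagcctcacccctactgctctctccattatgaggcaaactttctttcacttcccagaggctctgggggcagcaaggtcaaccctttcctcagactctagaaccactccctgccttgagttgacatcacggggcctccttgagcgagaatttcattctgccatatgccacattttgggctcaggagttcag
Ucp1 upstream B, chr8:83285724-83285924, plus strand: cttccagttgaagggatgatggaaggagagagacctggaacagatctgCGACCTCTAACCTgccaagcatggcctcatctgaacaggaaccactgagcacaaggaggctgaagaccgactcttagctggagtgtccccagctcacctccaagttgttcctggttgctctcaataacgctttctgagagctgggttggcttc
Ucp1 upstream C, chr8:83284607-83284807, plus strand: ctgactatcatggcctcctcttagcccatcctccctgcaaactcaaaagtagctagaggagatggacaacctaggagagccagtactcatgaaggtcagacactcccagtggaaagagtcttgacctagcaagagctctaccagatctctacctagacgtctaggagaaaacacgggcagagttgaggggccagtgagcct
Otop1 downstream, chr5:38305403-38305603, plus strand: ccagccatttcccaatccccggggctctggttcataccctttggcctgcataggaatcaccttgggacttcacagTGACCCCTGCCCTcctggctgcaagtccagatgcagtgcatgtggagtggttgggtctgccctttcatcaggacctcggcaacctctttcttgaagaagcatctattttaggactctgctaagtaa
Prdm16 intragenic, chr4:154634967-154635167, minus strand: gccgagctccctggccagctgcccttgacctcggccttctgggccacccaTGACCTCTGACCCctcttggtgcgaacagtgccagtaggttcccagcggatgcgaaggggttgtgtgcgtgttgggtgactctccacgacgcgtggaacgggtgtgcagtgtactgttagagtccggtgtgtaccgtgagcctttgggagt
Zic1 downstream, chr9:91350805-91351005, minus strand: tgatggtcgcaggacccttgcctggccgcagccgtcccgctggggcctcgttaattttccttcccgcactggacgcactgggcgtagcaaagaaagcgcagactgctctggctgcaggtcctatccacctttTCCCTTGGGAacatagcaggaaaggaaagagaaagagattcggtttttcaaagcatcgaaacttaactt

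Promoter opening of the 9 genes was compared first across tissues. All 9 promoters were open in both brown adipose libraries, where 67.9% of all protein-coding promoters were. None of the 9 was open in brown adipose alone, which held for 9 genes or 0.041% of all promoters, and 105 of the 126 pairs of a gene and a library outside brown adipose were open, where 73.6% of such pairs over all genes were. The level separated the genes more than presence did. The mean percentile of both brown adipose libraries was above that of every other tissue for 5 of the 9 genes, Ucp1, Cidea, Dio2, Otop1 and Zic1, against 7.22% of the 19719 genes with a listed promoter peak. For 4 of them, Ucp1, Cidea, Otop1 and Zic1, each brown adipose library was above each of the 14 others, against 2.09% of all genes. The median over the 9 genes of brown adipose minus the mean of the other tissues was 35.1 percentile points, and over all genes −0.0944 points. It was 11.3 points when the lists were ranked by fold enrichment. With 1 tissue of 8 no permutation of tissues can give p below 1 in 8, so these counts are set beside their background and carry no test.

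**Figure D1:**
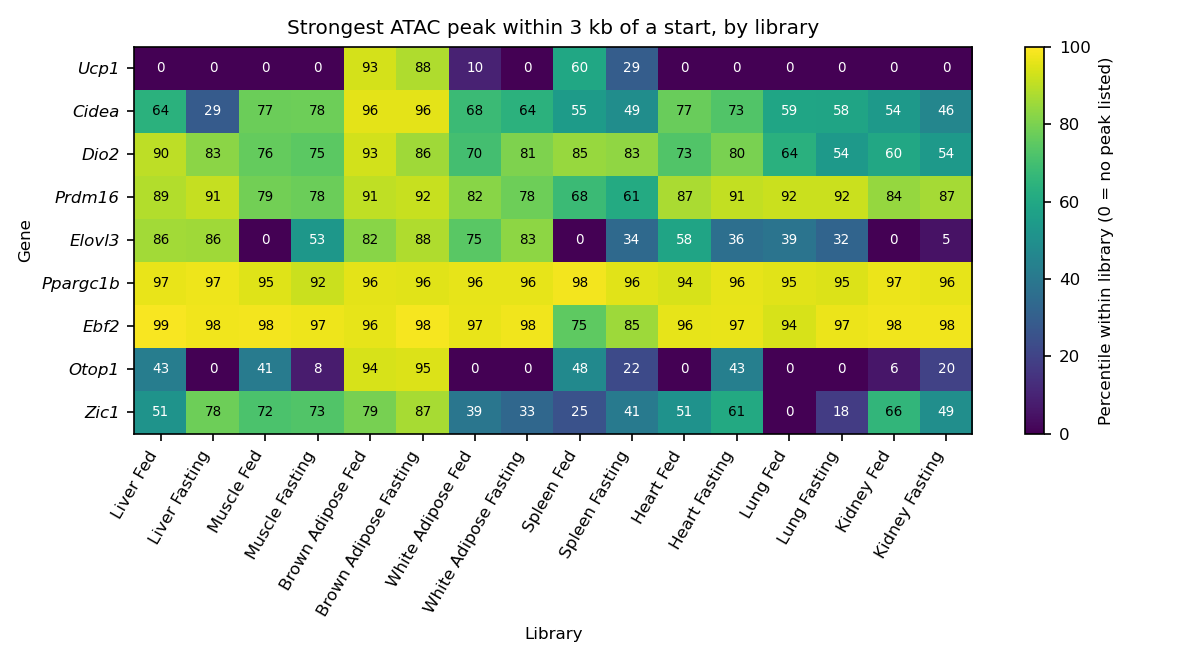
Percentile of the strongest ATAC peak within 3 kb of a start (colour and number, 0 to 100, 0 where no peak was listed) for the 9 genes (rows) in the 16 libraries (columns). Ucp1 and Otop1 stand at 88.1 or above in both brown adipose libraries and at 59.6 or below elsewhere, while Ppargc1b stands at 92.1 or above in every library.

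Among the effectors, Ucp1, the uncoupling protein itself, stood at the 93.5 percentile in fed and the 88.1 percentile in fasting brown adipose. No Ucp1 promoter peak was listed in 11 of the other 14 libraries. The 3 exceptions were fed white adipose at 9.64, fed spleen at 59.6 and fasting spleen at 29.5, and they rested on 30, 16 and 13 summit tags, against 889 and 121 in fed and fasting brown adipose. A percentile of 59.6 in spleen is thus a small peak in a shallow library, with 4.99 tags per background tag where fed brown adipose had 69.6. Fed white adipose had 2.99 tags per background tag and fasting white adipose listed no peak, so white fat showed little opening at the Ucp1 promoter. In the gene body extended by 10000 bp, 7 of the 14 other libraries listed a peak. The highest were fed spleen at 71.0, fasting white adipose at 65.7 and fed liver at 62.5, against 93.5 and 90.3 in brown adipose.

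Otop1, which encodes the proton channel otopetrin 1, was the gene nearest to Ucp1 in this respect. Its percentile was 94.1 in fed and 94.8 in fasting brown adipose, and the other 14 libraries ran from 0 through a median of 6.95 to 47.6. Both white adipose libraries listed no Otop1 promoter peak. The brown adipose level was 60.2 tags per background tag in fed and 26.0 in fasting mice, and the highest other library, fed liver, had 5.0.

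Cidea, whose product promotes the fusion of lipid droplets, was open everywhere, yet highest in brown adipose. It stood at 96.1 in fed and 95.7 in fasting mice, and the other 14 libraries ran from 28.5 through 61.3 to 77.7, without overlap. Muscle came next with 77.5 and 77.7. In tags the gap was wider, with 69.8 and 34.2 tags per background tag in brown adipose against at most 10.8 in any other library.

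Elovl3, an elongase of very long chain fatty acids, was shared with liver. Its brown adipose values of 82.0 and 88.3 lay on both sides of the liver values of 86.1 and 85.9, so these tissues did not separate. White adipose followed with 74.5 in fed and 83.0 in fasting mice, while fed muscle, spleen and kidney listed no peak.

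Dio2, the deiodinase that makes active thyroid hormone inside the cell, had its highest tissue mean in brown adipose, at 93.0 in fed and 85.6 in fasting mice. Liver, with 89.9 and 82.5, overlapped these values, and the 14 other libraries ran from 53.7 through 75.6 to 89.9. The brown adipose and liver values came from different sites. The fed brown adipose summit lay 574 bp upstream of the Dio2 start, and that region stood at 66.2 in fed and 0 in fasting liver. The liver summits lay farther upstream, at chr12:90740487-90740765, where brown adipose stood at 78.4 and 83.0. Brown adipose was 15.996 points above the mean of the other tissues, and 45.972 points with a 1 kb window. Ranked by fold enrichment the difference was 7.016 points.

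Among the regulators, Zic1, a zinc finger factor used as a marker of classical brown fat, stood at 79.4 and 86.7 in brown adipose and at 0 to 78.0 elsewhere, with a median of 50.2. White adipose was low for Zic1, at 39.3 and 33.3. Its 3 kb window also holds starts of the neighbour Zic4.

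Prdm16, the zinc finger coregulator of brown adipocyte identity, stood at 90.5 and 91.8 in brown adipose and lung stood slightly above it, at 91.9 and 92.0. The gene has 7 annotated starts, and the strongest summit lay at the first start in fed and 106101 bp away at an internal start in fasting brown adipose. The lung summits lay near another internal start, at chr4:154336527-154337259, where brown adipose stood at 38.6 and 69.9. The lung and brown adipose values thus came from different sites. Brown adipose was 8.378 points above the mean of the other tissues for Prdm16. The difference was 32.996 points with a 1 kb window and 21.566 with starts of protein-coding transcripts, but −4.50 ranked by fold enrichment. Ebf2, a factor of the brown adipocyte lineage, stood at 96.5 and 98.5, and Ppargc1b, the coactivator PGC-1 beta, at 95.9 and 95.6. These promoters were near the top of almost every list, with medians of 97.3 and 96.1 over the 14 other libraries, and brown adipose ranked 4 and 5 of 8 tissues. Spleen was the exception for Ebf2, at 75.2 and 85.5.

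The percentile uses a p that compares a summit with its own surroundings, and the surroundings of these genes were themselves open. At the Ucp1 start in fed brown adipose the expected number was 179 tags, against 12.8 in background chromatin. Ranking the lists by summit tags instead, an alternative chosen after seeing the data, put 8 of the 9 promoters highest in brown adipose, all except Elovl3, against 6.63% of all genes. Ranking by fold enrichment over the surroundings put 2 of the 9 highest there, against 5.41% of all genes.

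Wider windows were then examined, covering each gene body extended by 10000 bp on both sides. By the strongest summit in the window 4 of the 9 genes were highest in brown adipose, Ucp1, Cidea, Dio2 and Zic1, against 7.26% of all genes. The windows of Otop1 and Elovl3 also hold the starts of Tmem128 and Pitx3, which are coding genes of their own. The single strongest summit therefore says little about distal sites, and all regions in the windows were counted instead. Merging the peaks with q under 0.01 of all 16 libraries gave 633 regions in these windows.

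Of the 633 regions, 224, or 35.4%, had their highest tissue mean in brown adipose, against 8.31% of the 531612 regions in the windows of all protein-coding genes. Spleen, which led in 25.7% of all regions, led in 15.6% of these, and white adipose led in 6.16%. Regions listed in both brown adipose libraries and in no other library numbered 35, or 5.53%, against 0.646% of all regions. Kidney was next with 11 such regions of its own at these genes, or 1.74%, below its 2.56% of all regions. White adipose had 1, or 0.158%, against 0.353% of all regions. Regions of a gene share its locus and are not independent, so these shares are descriptions.

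**Figure D2:**
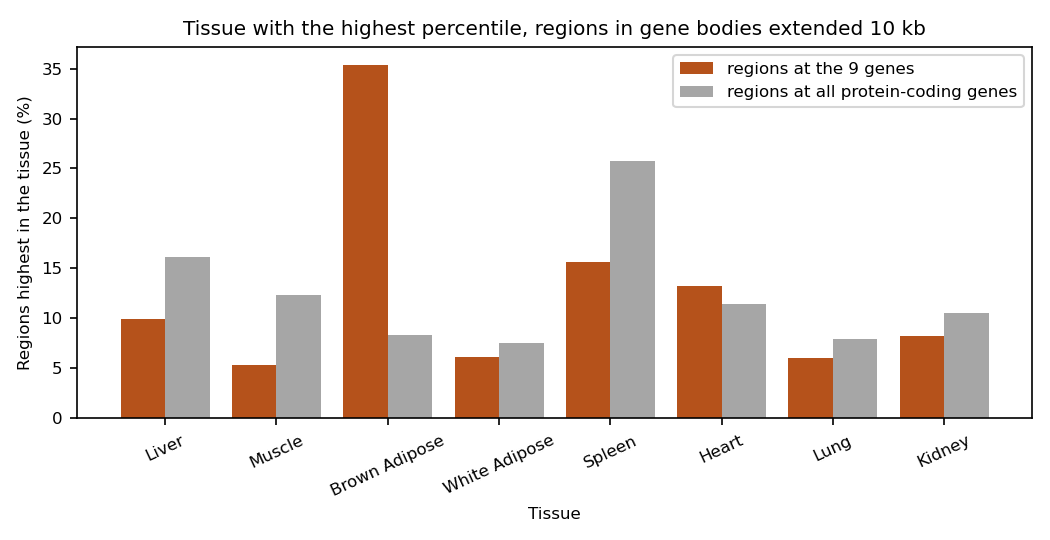
Share of regions (%, vertical axis) whose mean percentile was highest in each of 8 tissues, for the 633 regions at the 9 genes and for the 531612 regions at all protein-coding genes. Brown adipose leads in 35.4% of the regions at the 9 genes and in 8.31% of all regions.

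The genes differed in how much of their locus was led by brown adipose. At Zic1 it was 14 of 16 regions, at Ucp1 14 of 17 and at Ebf2 70 of 126. Otop1 had 13 of 27, Cidea 18 of 39 and Dio2 5 of 15. The long gene Prdm16 had 66 of 257 regions and Ppargc1b 23 of 122, and Elovl3 had 1 of 14, or 7.14%, near the share over all regions. Ebf2 thus had a promoter that did not separate the tissues and a gene body in which 55.6% of regions were highest in brown adipose. The strongest of these lay 181017 bp downstream of the nearest Ebf2 start, at chr14:67415124-67415983 within the gene, at 91.6 in fed and 95.3 in fasting mice, where white adipose came next with a mean below that of either brown adipose library.

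At Ucp1 (chr8:83290352-83298452, plus strand), 5 regions were listed in brown adipose only. The strongest, upstream C in the sequences above, lay 5645 bp upstream at chr8:83284282-83284833 and stood at 90.7 in fed and 90.3 in fasting mice. Upstream B, 4528 bp upstream, stood at 82.1 and 81.0. Upstream A, 2385 bp upstream, stood at 85.5 and 88.1 and was open in 1 other library, from spleen. The region at the start, chr8:83289938-83290848, stood at 93.5 in fed and 78.8 in fasting mice. In fed mice the start was thus the strongest site of the locus, and in fasting mice it was passed by upstream A, B and C.

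**Figure D3:**
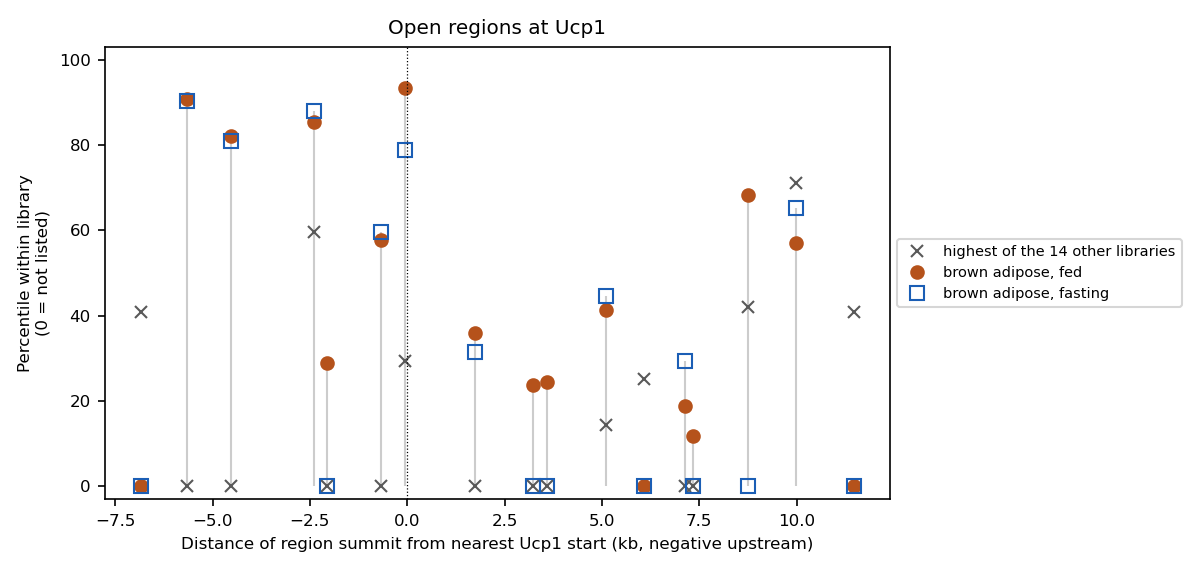
Percentile within its library (vertical axis, 0 where not listed) of the 17 regions at Ucp1 against the distance of the region summit from the Ucp1 start (kb), for both brown adipose libraries and the highest of the 14 other libraries. Upstream regions at 5645 and 4528 bp are listed in brown adipose only, and the region at the start falls from 93.5 in the fed to 78.8 in the fasting library.

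Brown-adipose-only regions were also found at the other genes. Otop1 had 3, and the strongest, 19480 bp downstream of the nearest start and past the end of the gene, stood at 90.3 and 90.9. Prdm16 had 9, and the strongest, in the gene body at chr4:154477012-154477812, stood at 89.8 and 83.4. Zic1 had 4, with one 12149 bp downstream of the nearest start at 81.8 and 79.5. Cidea and Ebf2 had 6 each, Ppargc1b 2, and Dio2 and Elovl3 none.

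The 201 bases around brown adipose summits were searched on both strands for 6 motifs of factors known in this programme. These were the PPAR/RXR direct repeat AGGTCANAGGTCA with up to 2 bases different, the EBF site TCCCNNGGGA, the ERR site TCAAGGTCA, which contains a repeat unit of the PPAR/RXR motif, the NFI site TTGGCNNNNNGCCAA with up to 1 base different, the cyclic AMP element TGACGTCA and the C/EBP site TTGCGCAA. The PPAR/RXR repeat was present in 5 of the 35 brown-adipose-only regions, or 14.3%, against 4.39% of all brown adipose summits and 6.53% of the 5240 brown-adipose-only regions of the genome. Over the 179 regions of these genes open in both brown adipose libraries it was present in 7, or 3.91%, near the share over all summits. The 5 were at Ucp1 (upstream B), Prdm16, Cidea and, in 2 regions, Otop1. The EBF site was present in 2 of the 35, at Zic1 and Prdm16, or 5.71%, against 1.59% of all brown adipose summits and 3.74% of the brown-adipose-only regions. The ERR site was in none of the 35 but in 5 of the 179, or 2.79%, against 0.625% of all summits. NFI, cyclic AMP and C/EBP letters were in none of the 35. Neither the start of Ucp1 nor upstream A or C held any of the 6 motifs in these 201 bases at these settings.

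Fed and fasting mice were compared next. By percentile in the 3000 bp window, no gene of the 9 moved by 10 points or more between both brown adipose libraries, where 7.51% of promoters with a brown adipose peak were at least 10 points higher and 8% at least 10 points lower in fasting mice. The median difference over the 9 was 0.730 points, and 4 were lower in fasting mice. Dio2 had the largest fall, 7.45 points, and Ucp1 fell by 5.41 points. Zic1 was 7.35 points higher and Elovl3 6.23 points higher in the fasting library. The sizes depended on the setting. Ucp1 was 14.6 points lower in fasting mice (a difference of −14.6) with a 1 kb window, which leaves out upstream A. Among the 100000 strongest rows the differences were −16.1 for Ucp1, −22.2 for Dio2, 18.7 for Elovl3 and 22.1 for Zic1. With the ranking by fold enrichment 8 of the 9 genes were over 10 points higher in fasting mice. No share over all genes is given at these settings, so these changes do not set the 9 genes apart.

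Summit tags gave a fuller view, because a percentile near the top of a list moves little when the height changes much. The height of a promoter was taken as the tags at its highest summit per background tag. Over the 15230 promoters listed in both brown adipose libraries the median log2 ratio of fasting to fed was −0.87, so the fasting library was flatter as a whole, and each gene is read relative to that shift. The highest Ucp1 summit had 69.6 tags per background tag in fed brown adipose, at the start, and 17.9 in fasting brown adipose, at upstream A, which lies 2322 bp away. The log2 ratio of these heights was −1.96, which is −1.09 relative to the median, and 68 promoters or 0.446% of all were lower. Dio2 went from 34.9 to 11.1, a log2 ratio of −1.65, with 1.95% of promoters lower. These were the 2 of the 9 genes below the lowest 5% of all promoters.

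The other 7 lay inside the range from the lowest to the highest 5% of promoters, −1.44 to −0.41 on the log2 scale. Relative to the median the log2 ratio was −0.43 for Prdm16, −0.35 for Ppargc1b, −0.34 for Otop1 and −0.16 for Cidea. It was 0.15 for Elovl3, 0.16 for Zic1 and 0.21 for Ebf2. With counting error alone, the 95% Poisson intervals of the fed and fasting Ucp1 heights were 65.1 to 74.4 and 14.8 to 21.4. These heights came from different summits and carry the shift of the whole library. Fed and fasting intervals were also apart for Dio2 and each of the other 7, including Ebf2 at 68.4 to 77.8 and 41.2 to 51.6. The intervals therefore do not set Ucp1 apart. Spread between animals or libraries could not be measured.

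The same comparison over regions gave a locus-wide pattern at Ucp1. Over the 86778 regions open in both brown adipose libraries the median log2 ratio was −0.84, and all 9 such regions at Ucp1 were below it, 7 of them in the lowest 5% of all regions. The region at the start went from 889 summit tags in the fed to 78 in the fasting library, or from 69.6 to 11.5 per background tag. Its log2 ratio was −2.59, which is −1.75 relative to the median, and 0.0415% of all regions were lower. Among the 18521 regions with a geometric mean height of at least 20 per background tag no other region had a ratio as low. Upstream A, B and C were less affected, at −0.68, −0.87 and −0.55 relative to the median. Regions in the body and beyond the end of the gene, 1736, 5095, 7137 and 9996 bp downstream of the start, lay between −1.64 and −1.13.

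**Figure D4:**
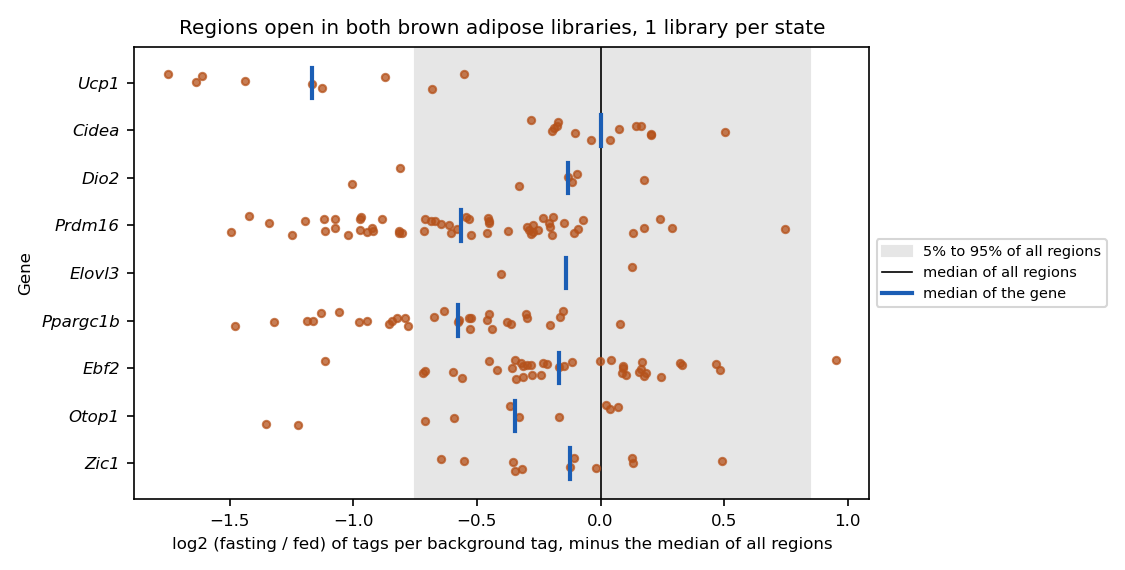
log2 ratio of fasting to fed height (summit tags per background tag) minus the median of all 86778 regions (horizontal axis) for the 179 regions open in both brown adipose libraries at the 9 genes (points, scattered vertically within a gene for display), with the median of each gene (blue bar) and the range from the lowest to the highest 5% of all regions (grey). All 9 Ucp1 regions lie left of the median, and the Cidea regions lie around it.

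Over all 9 genes, 142 of the 179 regions were below the median of all regions and 45 were in the lowest 5%, of which 20 were at Prdm16 and 13 at Ppargc1b. The median relative log2 ratio was −1.17 at Ucp1, −0.56 at Prdm16, −0.58 at Ppargc1b and −0.35 at Otop1. It was −0.17 at Ebf2, −0.13 at Dio2 and −0.12 at Zic1, and at Cidea it was 0.00083. At Dio2 the regions 574 bp upstream and 281 bp downstream of the start were at −0.81 and −1.0, and the other 5 lay between −0.33 and 0.18. There was 1 library per state, so no test stands behind these differences.

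Markers of skeletal muscle, which lies beside brown fat depots, were mostly lower in the fasting library as well. Their mean promoter percentile over 5 genes went from 67.9 in fed to 45.0 in fasting brown adipose. Of the 5, 3 fell by over 10 points, with Acta1 going from 75.6 to 48.9, Tnnt3 from 34.6 to 6.49 and Myh4 from 52.8 to 0. Over all promoters with a brown adipose peak 8% were at least 10 points lower and 7.51% at least 10 points higher. By tags Acta1 had a log2 ratio of −2.04 and was in the lowest 5% of promoters. Ckm went from 77.1 to 69.6, and Mylpf was slightly higher in the fasting library, 99.8 against 99.1. In muscle itself the list had a mean percentile of 93.0. These promoters were not particular to muscle, since the list mean was 73.0 in white adipose and 67.9 in heart. Acta1 was highest in white adipose, at 93.7. Other marker lists moved too. Of 5 endothelial markers 2 were over 10 points higher in the fasting library, Pecam1 going from 35.6 to 52.1 and Cdh5 from 59.0 to 75.9. The others moved less, Tek from 62.7 to 64.7, Emcn from 26.6 to 28.6 and Kdr down from 65.0 to 61.1. The median log2 tag ratio of the endothelial list was 0.37 relative to all promoters. Of 5 cardiac markers Tnnt2 went from 55.0 to 28.6 and Tnni3 from 84.4 to 72.6, while Myh6 went from 0 to 22.1. The fasting Myh6 peak did not reach q under 0.01. The fed list held no row with −log10 p below 7.11, where the fasting list ran down to 2.48, so the Myh6 values are not comparable. Of 5 macrophage markers Cd163 went from 81.7 to 62.5 and Cd68 was 14.8 points higher in the fasting library, and Ptprc, Csf1r and Adgre1 were at 0 in both. The part of these shifts in the results at Ucp1 and Dio2 was not tested. The Ucp1 promoter had no listed peak in either muscle library, and Dio2 stood at 76.3 and 74.8 there.

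Fasting was also examined over all tissues with an exact two-sided sign-flip permutation test of the percentile difference over the 8 tissues, in which the smallest possible p is 0.0078. After Benjamini-Hochberg adjustment over the 19719 genes tested no gene passed 0.05 (0%), and 1043 genes, 5.29%, had an unadjusted p under 0.05. One of the 9 genes was among these. Cidea was lower in fasting mice in 7 of 8 tissues, by a mean of 7.20 points with an SD of 11.7 over tissues, with an unadjusted exact p of 0.0156 and an adjusted p of 0.815. Most of that mean came from liver, where Cidea went from 63.8 to 28.5. The other 8 genes had unadjusted p values of 0.148 or more. Outside brown adipose, the Ucp1 promoter was unlisted in both states of 5 tissues and had no fasting difference to measure there.

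Other genes of the thermogenic programme were taken as a list of 40, also chosen with earlier results of these data known. It covered adrenergic signalling, fatty acid oxidation, creatine and calcium cycling, respiratory chain subunits, batokines and transcription factors. Of these 39 were open in both brown adipose libraries and 8 were highest there, or 20%, against 7.22% of all genes. The 8 were Kng2, Bmp8b, Ffar4, Adrb3, Pparg, Kcnk3, Letmd1 and Atp2a2. Some led narrowly, Atp2a2 with 97.71 against 97.67 in heart, Letmd1 with 98.73 against 98.68 in lung, and Kcnk3 with 95.3 against 94.2 in white adipose. Ranked by summit tags it was 22 of the 40, against 6.63%. Adrb3, the beta-adrenergic receptor of adipocytes, stood at 89.5 and 90.9 in brown adipose against a mean of 63.8 in other tissues, but white adipose was close behind at 88.7. Bmp8b, a secreted factor of brown adipocytes, stood at 93.3 and 92.9 against 39.8, with liver next at 79.8. Ffar4, a receptor for long chain fatty acids, stood at 96.9 and 95.7 against 52.1, with white adipose next at 92.9. Kng2, which encodes a kininogen, had the largest difference from the mean of the other tissues, 59.3 points, yet liver nearly equalled brown adipose, at 86.7 against 87.8.

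Genes that brown fat shares with other oxidative tissues were open elsewhere as well. Cpt1b, the mitochondrial carnitine palmitoyltransferase of muscle and brown fat, was 48.6 points above the mean of the other tissues, and muscle was higher still. S100b was 56.5 points above that mean, with kidney higher. The median over the 40 genes was 2.21 points, since most of their promoters were near the top of every list. At the other end Gatm, an enzyme of creatine synthesis, was 44.0 points lower in brown adipose than elsewhere, and Fgf21, Gk and Slc25a20 were 3.01, 1.29 and 1.02 points lower. In brown adipose 2 of the 40, Gatm and Fgf21, were at least 10 points lower in the fasting library and none was 10 points higher. Over all promoters with a brown adipose peak 8% were lower and 7.51% higher by that much, so these counts do not set the list apart. By tags, the median log2 ratio of the 40 was −0.04 relative to all promoters, and none was in the lowest 5%, where Ucp1 and Dio2 were.

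**Figure D5:**
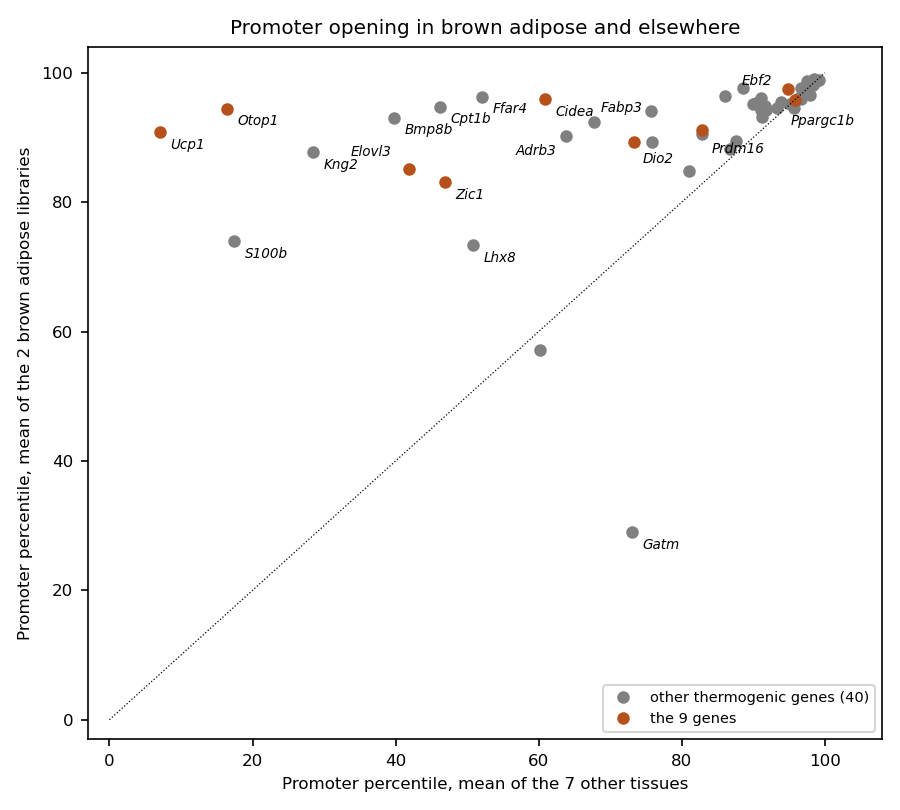
Mean promoter percentile of both brown adipose libraries (vertical axis) against the mean of the 7 other tissues (horizontal axis) for the 9 genes and 40 other thermogenic genes, with the line of equality. Ucp1 and Otop1 lie at the upper left, most other promoters lie near the upper right corner, and Gatm lies below the line.

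The promoters whose percentiles over the 16 libraries were most like those of Ucp1 were Tpte (Pearson r = 0.984), Zcchc12 (0.940), Gm10985 (0.928), Mgat4e (0.924) and Rpl9-ps1 (0.890). Like Ucp1, they were listed in both brown adipose libraries and in few others, 3 to 5 libraries in all. Their brown adipose percentiles were lower, from 55.5 to 80.9. The 16 points come from the same pools of mice and are mostly 0, so the correlation describes presence in brown adipose and spleen.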

How the data were processed

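ATAC-seq peaks of 16 mouse libraries (8 tissues, fed or fasting, 1 pooled library each) were analysed. Per the labels and the methods, the authors aligned reads to GRCm38 with Bowtie2, removed duplicates and mitochondrial reads, corrected read ends for the Tn5 offset and ran MACS2, keeping the most significant rows. Every deposited list holds a fold ratio at the summit (tags plus 1 over expected plus 1), −log10 p, −log10 q, a display score that was not used, and positions. None is scaled between libraries, so the limit on list length, which ended 8 lists while every row still had q under 0.01, affects what is listed.

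Summit and expected tags were solved from fold and p, and 98.3% to 100.0% of rows came out whole within 0.001. Summits were assigned to GENCODE vM21 starts, 3000 bp either side. The study used a later release. Every peak ended inside its GRCm38 chromosome. Python 3.11.15, numpy 2.4.6, pandas 2.3.3, scipy 1.17.1 and numba 0.67.0 were used, and functions were tested on simulated data. Intervals are exact Poisson, 95%, and cover counting error only. Replicates within a group do not exist, and p values from tissues that share mice speak of these pools only. The 9 genes, the other lists and the settings were chosen with earlier results of these data known. Named genes were the 9, the extremes of the thermogenic list and its genes highest in brown adipose, marker and fasting genes, and the 5 promoters most correlated with Ucp1. Alternatives covered the window, q threshold, ranking column, merged rows, list length, depth and tissues left out.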

Additional observations from a re-analysis of the deposited data

Results flagged for a closer look

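The promoter of Otop1 moved in opposite directions between fed and fasting mice in heart and liver, and the difference between these tissues was not tested. In heart it was listed in the fasting library only, 43.2 points above fed, on 18 summit tags. In liver it was listed in the fed library only, with fasting 42.5 points below (a difference of −42.5), on 14 summit tags. Each tissue had 1 library per state, and both peaks were at 3.08 to 5.0 tags per background tag, where fed brown adipose had 60.2.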

How the results depend on the processing

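Of the 58 alternative values of the main counts and medians, 51 stayed within the spread between genes or within 1.5 times, a wide margin for the median of brown adipose minus other tissues, which ran from 11.3 (by fold) to 49.1 points (q under 1e-06). The other 7 came from the ranking column, and the cause was not tested. Ranked by fold enrichment, 2 promoters and 2 gene bodies of the 9 genes and 4 of the 40 thermogenic genes were highest in brown adipose, and the median fasting minus fed difference in brown adipose was 16.3 points. Ranked by summit tags, chosen after seeing the data, it was 8 promoters, 7 gene bodies and 22 of the 40. For the gene bodies no share over all genes is given under these rankings. For single genes, 87 of 144 values stayed within 5 points and 12 changed sign. Changes of 10 points or more between states appeared for Ucp1 with a 1 kb window, for Ucp1, Dio2, Elovl3 and Zic1 among the 100000 strongest rows, and for 8 genes by fold. No share over all genes stands beside these changes. Fasting minus fed in brown adipose became 12.1 (Cidea), 21 (Ppargc1b) and 18.6 (Ucp1) points by fold, −2.46 (Otop1) and −3.27 (Prdm16) by tags, 0.719 (Cidea) and 0.724 (Ppargc1b) with rows merged into regions, and −0.694 for Prdm16 with a 1 kb window or with starts of protein-coding transcripts. Brown adipose minus other tissues became −12.3 (Ebf2) and −4.50 (Prdm16) by fold and 1.44 (Ppargc1b) by tags. By p, the Ucp1 values compare different summits, the start in fed and upstream A in fasting mice. No replicate was left out because there is 1 library per group. The sign-flip test pairs states within tissues.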

Other observations

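Among 6 adipocyte hormone genes, 2 were highest in brown adipose, where 7.22% of all genes were. Lep, which encodes leptin, stood at 96.1 in fed and 90.8 in fasting brown adipose against a mean of 24.8 in the other tissues, and Retn, which encodes resistin, at 93.4 and 95.8 against 16.4. Both are usually counted as white adipocyte markers, and white adipose came next at 88.4 for Lep and 90.0 for Retn. Adipoq was highest in liver and Apln in kidney. By tags Lep had a log2 ratio of fasting to fed of −1.54 in brown adipose and was in the lowest 5% of promoters, as Ucp1 and Dio2 were. Tcf21, another white adipocyte marker, listed no peak in either brown adipose library, which was so for 16.7% of all genes. The remaining white adipocyte markers were listed in both. Nnat stood at 91.1 in fed and 92.7 in fasting brown adipose, near the 92.4 of white adipose. Wt1 stood at 3.10 and 42.6, against 76.7 in white adipose.

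Of 6 beige adipocyte markers and 10 genes known to respond to fasting, none was highest in brown adipose, which at a share of 7.22% over all genes does not set these lists apart. Of 5 liver markers 4 had no listed promoter peak in either brown adipose library (Alb, Ttr, Serpina1c and Cyp3a11). That was so for 16.7% of all genes. The same held for 3 of 5 macrophage markers (Ptprc, Csf1r and Adgre1) and 3 of 5 lymphocyte markers (Cd79a, Cd3e and Ms4a1), while the macrophage markers Cd68 and Cd163 were listed in both.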
